A study of Mus musculus with 4 samples.

Results

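The library of GRK6-/- common lymphoid progenitors (CLP) was compared with the library of wild-type (WT) CLP, 2 of the 4 libraries of the series. Of 12417 gene symbols kept from the 4 libraries, 5238 were ranked between the CLP libraries, namely those with at least 10 FPKM in both or at least 20 FPKM in one. FPKM are fragments scaled to the length of the transcript and to the number of mapped fragments. The ratio of a gene is given on the log2 scale after adding 1 FPKM to each level, GRK6-/- divided by WT, so that a positive value is higher in GRK6-/-, and a gene was counted as higher or lower where this log2 ratio was at least 1 or at most -1, which is a 2-fold difference.

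All 4 groups were C57BL/6 mice, either wild-type or with a GRK6 knockout in which exons 3 to 9 of the gene are deleted, and by the study's methods they were 8 to 12 weeks old. CLP were sorted from bone marrow as lineage-negative cells carrying c-kit, sca-1 and the interleukin 7 receptor alpha chain, and hematopoietic stem cells (HSC) as lineage-negative cells carrying c-kit and sca-1. For each library, 13 to 15 cells from 3 to 4 mice were amplified one by one (20 cycles of PCR, then 10 more) and their cDNA was combined. There was 1 library per group and therefore no error and no test for any value below, and the genotype cannot be told apart from differences between these pools of few cells.

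CLP are bone marrow progenitors that give rise to B cells, T cells, natural killer cells and some dendritic cells. They are known for the receptors of interleukin 7 and FLT3 ligand, for terminal transferase and for the first expression of the recombinase that assembles antigen receptor genes. The B cell fate is set by the transcription factors E2A, EBF1 and PAX5, which switch on the surrogate light chain and the signalling chains of the pre-B cell receptor. GRK6 is a kinase that phosphorylates G protein-coupled receptors once they are activated, so that arrestins bind them and signalling through the G protein ends.

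The summed FPKM was 646260 in WT CLP and 598394 in GRK6-/- CLP. The lowest values fell on steps of 1, 2 and 3 fragments, which put the fragment totals behind the scaling near 4340000 for WT CLP and 2770000 for GRK6-/- CLP. An FPKM of 10 in a transcript of 2000 bases would then rest on about 86.8 and 55.4 fragments, which are copies after PCR and not independent molecules. A gene without a row was taken as 0 FPKM. Genes that dividing cells need, such as Exosc8 in WT CLP and Ndufs1 in GRK6-/- CLP, were also without a row, so such genes are given as having no row and without a fold. The Y-linked genes Eif2s3y and Ddx3y had rows in all 4 libraries.

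Between the CLP libraries, 1197 of 5238 ranked genes (22.9%) were at least 2-fold higher in GRK6-/- and 1112 (21.2%) at least 2-fold lower. The remaining 2929 lay within 2-fold, and the median log2 ratio was -0.01 with quartiles of -0.80 and 0.87. Between the HSC libraries 772 of 4946 ranked genes (15.6%) were higher and 793 (16%) lower. A gene with under 10 FPKM in one library was ranked only if it reached 20 in the other, so it was bound to be near or past 2-fold. Among the 4080 genes with at least 10 FPKM in both CLP libraries, for which this does not hold, 589 (14.4%) were higher and 562 (13.8%) lower. The counts of each gene list are read against these shares.

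**Figure D1:**
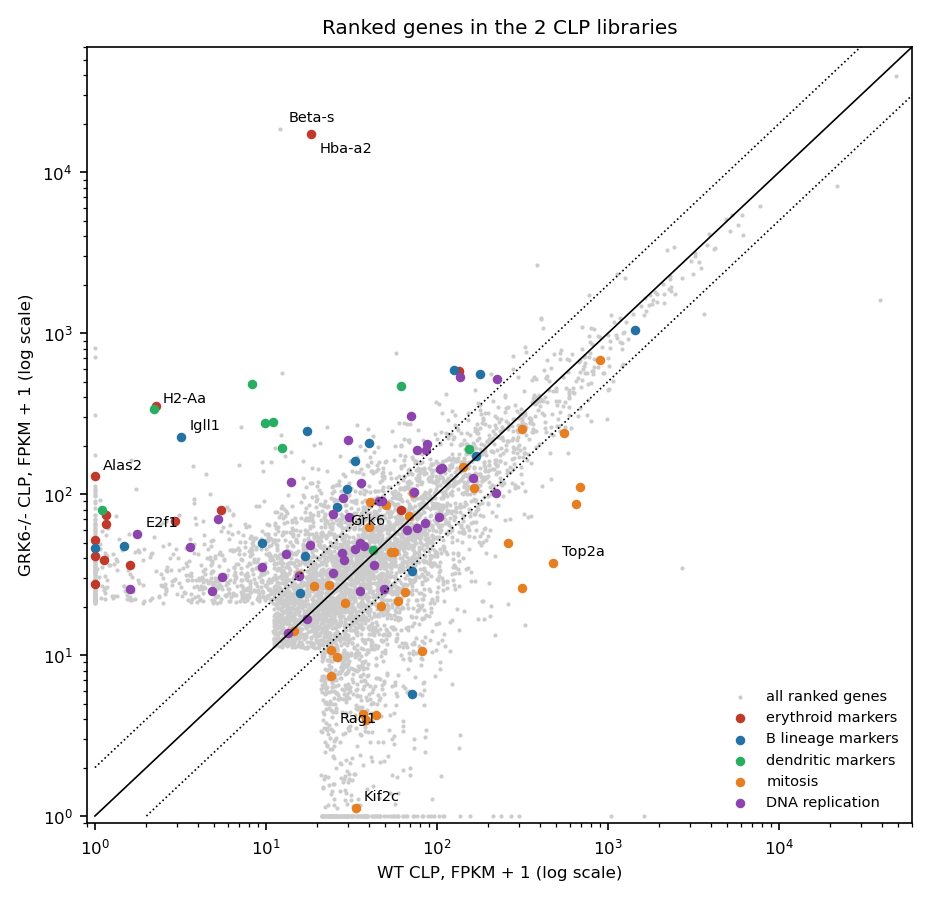
Each point is a ranked gene, with FPKM + 1 in WT CLP on the x axis and in GRK6-/- CLP on the y axis, both on log scales; the solid line marks equal levels, the dotted lines 2-fold, and the colours 5 gene lists. Erythroid, B lineage and dendritic markers lie mostly above the diagonal, DNA replication genes mostly on or above it, and mitosis genes mostly on or below it.

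Grk6 itself (Entrez Gene 26385, mm9 chromosome 13, 55546695 to 55562297) was higher in the library labelled GRK6-/- CLP. Its level was 57.6 FPKM there against 26.9 in WT CLP, a log2 ratio of 1.07, and 89.4 against 42.7 in the HSC libraries. The value is 1 per gene and covers exons outside the deletion, so it does not check the genotype. Of the 8 genes of the kinase and arrestin list, 3 were ranked in CLP. Arrb2, which encodes beta-arrestin 2, was also higher, at 8.50 FPKM in WT CLP and 49.9 in GRK6-/- CLP against 29.4 and 20.9 in WT and GRK6-/- HSC. Adrbk1, which encodes GRK2, was the most abundant kinase of the list in both CLP libraries, at 121 and 97.7 FPKM, within 2-fold.

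The transcripts that the CLP gate and its definition rest on were present in both CLP libraries. Il7r, the sorted receptor chain, had 75.1 FPKM in GRK6-/- CLP against 120.1 in WT CLP, no row in WT HSC and 1.08 FPKM in GRK6-/- HSC. Flt3 had 124 and 219 FPKM in WT and GRK6-/- CLP, and Dntt, the terminal transferase, 931 and 562. All 3 lay within 2-fold between the CLP libraries and were at least 2-fold above either HSC library. Kit, the c-kit receptor, was higher in GRK6-/- CLP, at 81.8 against 26.2 FPKM, with 53.3 in WT HSC and 34.4 in GRK6-/- HSC. The gene of sca-1, Ly6a, had a row only together with another gene and was left out.

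Erythroid transcripts, which lie outside the lymphoid fate of CLP, were among the largest differences in the ranking. Beta-s and Hba-a2, rows of the adult beta and alpha globin loci, held 6.00% of the summed FPKM of GRK6-/- CLP and 0.00441% of that of WT CLP. Hba-a2 had 17220 FPKM in GRK6-/- CLP, 17.4 in WT CLP, 5.98 in WT HSC and 53.2 in GRK6-/- HSC. Beta-s had 18659 FPKM in GRK6-/- CLP and 11.1 in WT CLP. Both rows span several globin gene copies, so they give the locus and not 1 gene.

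Of the 35 erythroid markers 27 had a row in some library and 14 were ranked, of which 13 were higher in GRK6-/- CLP and none was lower. Only 3 of them had at least 10 FPKM in both CLP libraries, of which 2 were higher. The 27 markers summed to 236 FPKM in WT CLP, where 9 had no row, and to 18929 in GRK6-/- CLP, where 1 had none. The sums were 537 FPKM in WT HSC and 2366 in GRK6-/- HSC. Most of the sum of GRK6-/- CLP was Hba-a2. The other 26 markers summed to 1709.5 FPKM in GRK6-/- CLP against 218 in WT CLP, and to 2313 against 531 in the HSC libraries, so that without this row GRK6-/- HSC was the highest library and WT CLP still the lowest. Between the HSC libraries 10 of 13 ranked erythroid markers were higher in GRK6-/- and none was lower, with a median log2 ratio of 2.77.

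The markers spanned the transcription factors, membrane proteins and enzymes of the lineage. Klf1, the erythroid Kruppel-like factor, had 73.3 FPKM in GRK6-/- CLP and 0.16 in WT CLP, against 3.88 in WT HSC and 51.5 in GRK6-/- HSC. Rhd, a blood group antigen of the red cell membrane, had 64.2 and 0.162 FPKM in GRK6-/- and WT CLP. Slc4a1, the band 3 anion exchanger, was listed at 50.9 FPKM in GRK6-/- CLP and had no row in WT CLP. These genes were near 0 in WT CLP. Some markers were as high or higher in GRK6-/- HSC, where Car1, carbonic anhydrase 1, had 612 FPKM against 67.3 in GRK6-/- CLP and 1.94 in WT CLP. Blvrb, biliverdin reductase B, had 313 FPKM in GRK6-/- HSC and 354 in GRK6-/- CLP, and 20.6 and 1.27 in the WT libraries. Nfe2, a factor shared with the megakaryocyte lineage, was the ranked member that lay within 2-fold, at 60.7 FPKM in WT CLP and 79.1 in GRK6-/- CLP.

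Single enzymes of heme synthesis were higher and others lay within 2-fold. Of 16 ranked genes of heme synthesis and iron handling 8 were higher in GRK6-/- CLP and none was lower. Alas2, the erythroid first enzyme of the pathway, was listed at 128 FPKM in GRK6-/- CLP and had no row in WT CLP. Cpox, coproporphyrinogen oxidase, had 24.1 FPKM in GRK6-/- CLP and 0.503 in WT CLP, and Fech, which inserts the iron, 45.9 and 16.7. The transporters of iron and glycine into the mitochondrion, Slc25a37 and Slc25a38, were higher as well, with log2 ratios of 1.46 and 1.79. Alad, Urod and Ppox lay within 2-fold, and Alas1, the enzyme for the first step in other cells, had 61.8 FPKM in GRK6-/- CLP and 119 in WT CLP. Among the 10 genes of the list with at least 10 FPKM in both CLP libraries 2 were higher, with a median log2 ratio of 0.27. The part of the erythroid transcripts in the other differences below was not tested.

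**Figure D2:**
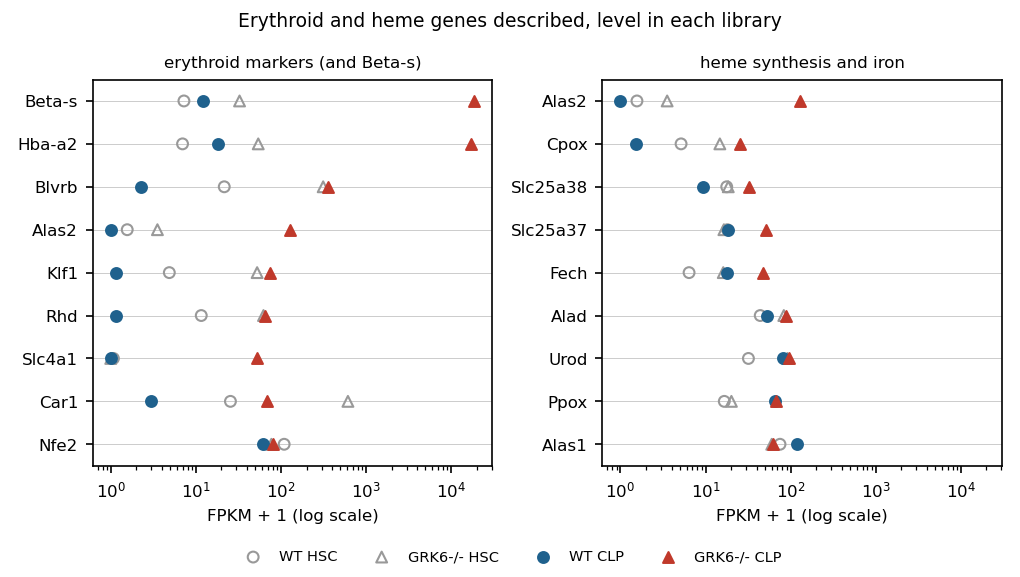
FPKM + 1 on a log x axis for the ranked genes of the erythroid list that the text names, with Beta-s added, and of the heme and iron list, with 1 symbol per library. The filled triangles of GRK6-/- CLP lie to the right of the filled circles of WT CLP by at least 2-fold for each erythroid marker shown but Nfe2, and the open triangles of GRK6-/- HSC often lie beside them.

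The factor GATA1 binds the letters NGATAA, where N is A or T, and it drives many erythroid genes together with KLF1. Of the 27 erythroid markers with a row 16 had a promoter window in RefSeq (GRCm38.p6, 250 bases before to 50 after the start, first window of each gene). Such letters occurred on either strand in 9 of 16 windows, 56.3%, against 19.0% of the windows of all 27025 genes and 9.93% of those of the ranked genes. The windows of Alas2 and Klf1 are shown because these genes had almost no signal in WT CLP. Capitals mark the GATA letters, which lie on the other strand in both.
Alas2, chrX:150547167-150547466, plus strand: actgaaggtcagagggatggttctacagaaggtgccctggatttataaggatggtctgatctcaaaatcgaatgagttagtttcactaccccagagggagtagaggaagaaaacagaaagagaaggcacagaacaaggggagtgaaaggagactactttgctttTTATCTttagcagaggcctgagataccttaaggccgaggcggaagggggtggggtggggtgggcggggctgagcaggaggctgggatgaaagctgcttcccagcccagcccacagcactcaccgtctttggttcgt
Klf1, chr8:84901732-84902031, plus strand: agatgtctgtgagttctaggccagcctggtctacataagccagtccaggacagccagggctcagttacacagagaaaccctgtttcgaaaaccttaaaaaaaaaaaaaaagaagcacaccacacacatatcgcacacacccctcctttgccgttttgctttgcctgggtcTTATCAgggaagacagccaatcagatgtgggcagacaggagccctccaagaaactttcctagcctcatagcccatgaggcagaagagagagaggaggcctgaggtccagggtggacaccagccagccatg
A match describes the sequence only and is no sign of binding.

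Genes of the B lineage were the next group to differ, and here WT CLP already had most of the transcripts. Of the 27 B lineage markers 20 had a row in some library, 18 of them in WT CLP, 19 in GRK6-/- CLP, 4 in WT HSC and 7 in GRK6-/- HSC. They summed to 2236 FPKM in WT CLP and 3665 in GRK6-/- CLP, against 363 and 309 in WT and GRK6-/- HSC. Of these, 17 were ranked, 12 of them higher in GRK6-/- CLP and 2 lower. Among the 12 with at least 10 FPKM in both CLP libraries 8 were higher and 1 was lower, with a median log2 ratio of 1.66 against -0.03 over all such genes. In GRK6-/- CLP 11 of the 17 were at least 2-fold above each of the other 3 libraries, against 10.3% of all ranked genes. Most of the 20 markers had no row in the HSC libraries, so this count largely repeats the difference from WT CLP. Pax5, Ms4a1 and Cd22, which come on in committed B cells, had no usable row in any library.

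The surrogate light chain, which stands in for the light chain in the pre-B cell receptor, held the marker that was furthest apart. Igll1, its lambda5 part, had 226 FPKM in GRK6-/- CLP, 2.20 in WT CLP and no row in either HSC library. Its VpreB part is encoded by Vpreb1 and Vpreb2, which are almost identical. Vpreb1 had 246 FPKM in GRK6-/- CLP and 16.4 in WT CLP, while Vpreb2 had 4.75 and 70.6. The rows of these copies went opposite ways and fragments cannot be split safely between them, so their sum is more secure, at 87.0 FPKM in WT CLP and 250.7 in GRK6-/- CLP, or 2.88 times higher. Vpreb3, a related chain at another locus, had 594 FPKM in GRK6-/- CLP and 124 in WT CLP.

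The signalling chains of the receptor and the factors above them were higher as well. Cd79a had 159.9 FPKM in GRK6-/- CLP and 32.1 in WT CLP, and Cd79b 207 and 39.1. Cd79b was also in both HSC libraries, at 41.9 FPKM in WT and 34.8 in GRK6-/-, close to WT CLP. Ebf1, the factor that specifies the lineage, had 82.0 and 25.0 FPKM in GRK6-/- and WT CLP and no row in HSC. Pou2af1, a coactivator of octamer factors in B cells, had 48.4 and 8.50. All 4 were between 3 and 6 times higher in GRK6-/- CLP. Fcrla, an Fc receptor-like protein of B cells, was listed at 45.4 FPKM in GRK6-/- CLP only.

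Other early lymphoid genes did not follow. Ly6d, which marks the CLP fraction biased to B cells, had 1438 FPKM in WT CLP and 1051 in GRK6-/- CLP. Blnk, an adaptor of the pre-B cell receptor, had 167 and 171. Blk, a tyrosine kinase of B cells, was lower, at 32.4 against 70.5 FPKM. None of these 3 had a row in HSC, so the CLP libraries shared them.

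The recombinase genes ran against the other B lineage genes. Rag1 (mm9 chromosome 2, 101478411 to 101489689) had 23.03 FPKM in WT CLP, 2.47 in GRK6-/- CLP and no row in HSC. Rag2, its partner beside it on the chromosome, had 94.5 FPKM in WT CLP and no row in GRK6-/- CLP, where a row of B230118H07Rik overlaps its locus at 1.47 FPKM. Rag1 was therefore lower in GRK6-/- CLP, and Rag2 was counted as lower because it had no row there, while Dntt stayed within 2-fold. Of the 14 genes of V(D)J recombination and end joining 7 were ranked, of which 3 were lower and 1 was higher. Of the 4 with at least 10 FPKM in both CLP libraries 1 was lower and none higher. The third lower gene was Xrcc6, the Ku70 subunit that binds broken ends, at 164 FPKM in WT CLP and 52.8 in GRK6-/- CLP. Xrcc5, the Ku80 subunit, went the other way, with 32.5 FPKM in GRK6-/- CLP and no row in WT CLP.

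The transcription factors and receptors that prime lymphoid progenitors were split. Of 26 ranked genes of that list 5 were higher and 6 lower in GRK6-/- CLP, close to the shares over all ranked genes. Stat5a, which carries the interleukin 7 signal, was lower, at 4.07 FPKM in GRK6-/- CLP against 40.9 in WT CLP, while Stat5b had 16.5 in GRK6-/- CLP, a log2 ratio of -0.51. Satb1 had 16.5 and 44.9 FPKM in GRK6-/- and WT CLP, and Sfpi1, which encodes PU.1, 72.8 and 177. The higher genes included inhibitors of E proteins. Id2, which holds back the B cell fate and is used by innate lymphoid and dendritic cells, had 92.2 FPKM in GRK6-/- CLP, 2.77 in WT CLP, 12.9 in WT HSC and 20.5 in GRK6-/- HSC. Id3 had 75.2 and 12.3 in GRK6-/- and WT CLP. Tcf3, which encodes the E2A proteins that they bind, had 28.3 and 19.5, within 2-fold.

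**Figure D3:**
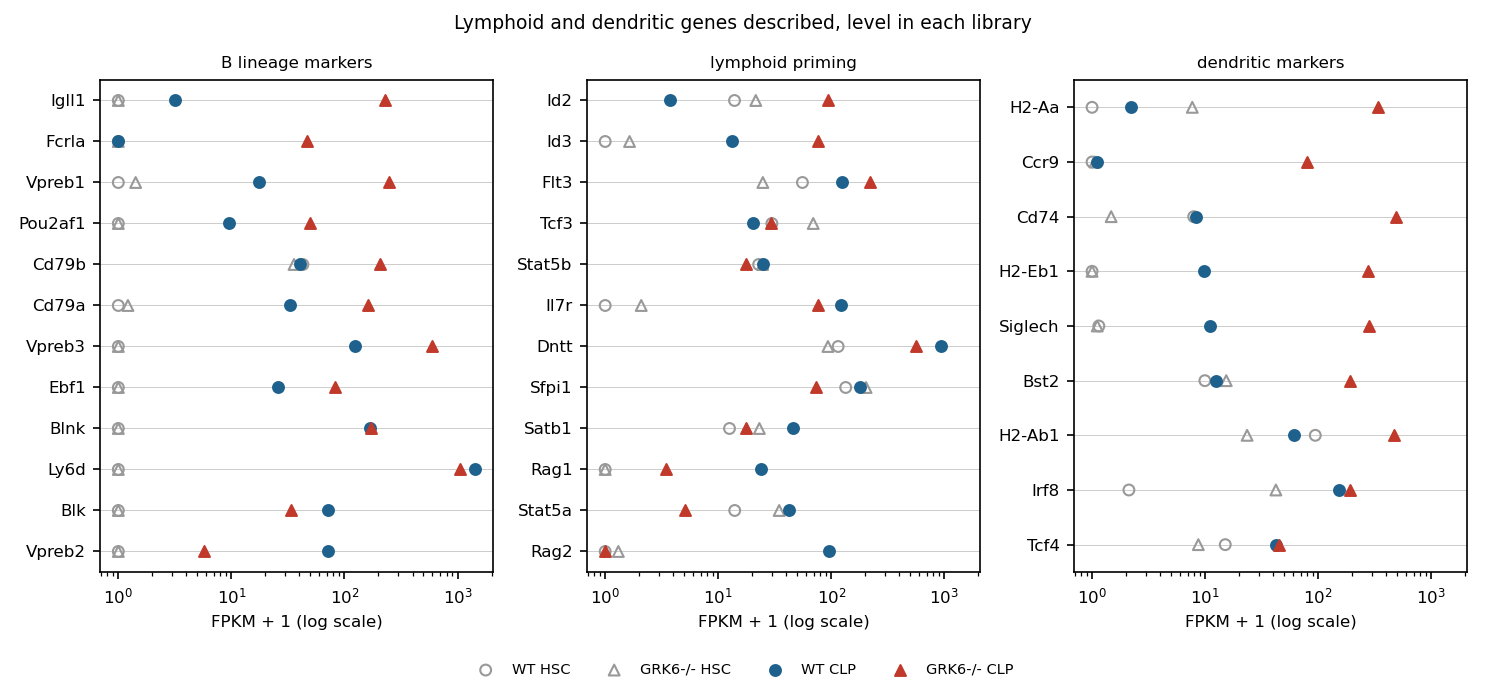
FPKM + 1 on a log x axis for the ranked genes of the B lineage, lymphoid priming and dendritic lists that the text names, ordered by their log2 ratio in CLP, with 1 symbol per library. GRK6-/- CLP (filled triangles) is the highest library for most B lineage and dendritic markers, while lymphoid priming genes lie on both sides, from Id2 at the top to Rag2 at the bottom.

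Several genes of the dendritic list were also higher in GRK6-/- CLP. Of 17 markers 9 were ranked, of which 7 were higher and none lower. These 7, or 77.8% of the 9 ranked, were also at least 2-fold above each other library, against 10.3% of all ranked genes. Being higher than WT CLP is part of that count, so only the HSC libraries are new in it. Of the 5 with at least 10 FPKM in both CLP libraries 3 were higher. Of the 7, 4 encode MHC class II molecules, which present peptides to helper T cells, or their invariant chain. H2-Aa had 336 FPKM in GRK6-/- CLP and 1.22 in WT CLP, H2-Eb1 275 and 8.85, and H2-Ab1 471 and 60.4. Cd74, the invariant chain that guides them, had 483 and 7.26. In HSC the only one of the 4 above 10 FPKM was H2-Ab1, at 93.2 in WT and 22.5 in GRK6-/-.

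Markers of plasmacytoid dendritic cells were among the 7. Siglech had 278 FPKM in GRK6-/- CLP and 10.0 in WT CLP. Bst2, which also responds to interferon, had 191 and 11.5. Ccr9, a homing receptor for thymus and gut that plasmacytoid dendritic cells and thymus-seeding progenitors carry, had 79.1 and 0.104. The factors of these cells did not differ in the same way. Irf8 had 190.3 FPKM in GRK6-/- CLP and 152 in WT CLP, and Tcf4, the E2-2 factor, 44.0 and 41.2. MHC class I differed little, with B2m at 5119 and 4902 FPKM and H2-K1 at 483 and 761 in GRK6-/- and WT CLP.

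A few markers of T, innate lymphoid and natural killer cells were listed in GRK6-/- CLP. Of the 23 T and innate lymphoid markers 5 were ranked and 2 of them were higher. Cd7, a surface protein of T and natural killer cells, had 64.8 FPKM in GRK6-/- CLP and 1.51 in WT CLP. Tcf7, the TCF1 factor, was listed at 21.6 FPKM and had no row in WT CLP, and Klrd1, the CD94 chain of natural killer receptors, was listed at 36.5 with no row in any other library. Zap70, which was not ranked, had 15.0 and 0.108 FPKM in GRK6-/- and WT CLP. Lck, the kinase of the T cell coreceptors, was alike in both, at 29.3 and 29.2, so the T and innate lymphoid list did not shift as a whole. Of the 12 natural killer markers 2 were ranked, of which 1, Klrd1, was higher and the other lay within 2-fold. The 7 with a row in some library summed to 249 FPKM in WT CLP and 451 in GRK6-/- CLP, against 714 and 431 in WT and GRK6-/- HSC.

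Myeloid transcripts were abundant in both CLP libraries. The enzymes of primary granules lay within 2-fold, with Elane at 3803 FPKM in WT CLP and 3516 in GRK6-/- CLP, Mpo at 1023 and 889.9, and Prtn3 at 2335 and 1936. Genes of secondary granules were listed in one CLP library or the other. Camp, the cathelicidin, and Ngp, the neutrophilic granule protein, were listed there at 68.0 and 44.7 FPKM and had no row in WT CLP. Cebpe, the factor these genes depend on, had 28.0 FPKM in GRK6-/- CLP and 1.84 in WT CLP, with 36.3 in WT HSC and 40.0 in GRK6-/- HSC. Ltf, which belongs to the same granules, had 2.40 FPKM in WT CLP and no row elsewhere. Of 19 ranked neutrophil markers 7 were higher and 3 lower, and of the 11 with at least 10 FPKM in both CLP libraries 2 were higher and none was lower. In GRK6-/- CLP 7 of the 25 markers had no row, against 3 in WT CLP.

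Monocyte and macrophage transcripts had no common direction, with sums of 225 FPKM in WT CLP and 262 in GRK6-/- CLP. Of 18 markers 14 had a row in some library, and 8 of the 14 had no row in GRK6-/- CLP against 1 in WT CLP. Over all genes GRK6-/- CLP had 10328 rows and WT CLP 10056. F13a1, coagulation factor XIII of monocytes, had 55.8 FPKM in WT CLP and 0.185 in GRK6-/- CLP. Csf1r, the M-CSF receptor, and Cx3cr1, the fractalkine receptor, had 16.6 and 18.5 FPKM in WT CLP and no row in GRK6-/- CLP. Only 5 of the markers were ranked, 2 higher and 1 lower, and of the 3 with at least 10 FPKM in both CLP libraries 1 was higher and none lower. The higher ones were Ctss, a lysosomal protease that also serves antigen presentation, at 188 against 36.8 FPKM, and Vcam1, at 26.8 with no row in WT CLP.

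S100a8 and S100a9, which form calprotectin, came apart. S100a8 had 439 FPKM in WT CLP and 371 in GRK6-/- CLP. S100a9 had 269 FPKM in WT CLP and no row in GRK6-/- CLP, with 33.6 in WT HSC and 1.63 in GRK6-/- HSC. S100a9 was thereby the lowest gene of the ranking among those without a naming conflict. Of the megakaryocyte markers 9 were ranked, 4 higher and none lower, while 2 were higher of the 7 with at least 10 FPKM in both CLP libraries. Among the 4 was Itga2b, the CD41 integrin, at 46.0 FPKM in GRK6-/- CLP, 2.52 in WT CLP, 47.0 in WT HSC and 4.201 in GRK6-/- HSC. Of the 13 mast cell, basophil and eosinophil markers the only ranked one was Mcpt8, a basophil protease, with 22.4 FPKM in WT CLP and no row in GRK6-/- CLP.

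Cell cycle genes differed in opposite directions by phase. Of 44 ranked genes of DNA replication and nucleotide synthesis 21 were higher in GRK6-/- CLP and 1 was lower. Of 33 ranked genes of mitosis 17 were lower and 2 were higher. Of the genes with at least 10 FPKM in both CLP libraries, 14 of 37 replication genes were higher and 1 was lower, and 9 of 25 mitosis genes were lower and 2 were higher. Between the HSC libraries 2 of 39 replication genes were higher and 3 lower, and 5 of 33 mitosis genes were higher and 1 lower. The replication list summed to 2330 FPKM in WT CLP and 4498 in GRK6-/- CLP, and the mitosis list to 5493 and 2527. The ratio of the mitosis sum to the replication sum was 2.36 in WT CLP and 0.562 in GRK6-/- CLP, against 0.906 in WT HSC and 1.24 in GRK6-/- HSC. The 2 CLP libraries thus lay on either side of both HSC libraries.

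The replication genes that differed most act at the entry into S phase and at the fork. E2f1, the factor that starts the program, had 55.8 FPKM in GRK6-/- CLP, 0.757 in WT CLP, 42.8 in WT HSC and 12.2 in GRK6-/- HSC. Ccne1, which encodes cyclin E1, had 24.9 and 0.608 in GRK6-/- and WT CLP. For both genes WT CLP was the library that stood apart. Pole, the leading strand polymerase, had 68.9 and 4.25 FPKM, and Lig1, the ligase that joins Okazaki fragments, 118 and 12.9. Mcm7, a subunit of the replicative helicase, had 537 and 135. The other helicase subunits did not follow, since Mcm2, Mcm4, Mcm5 and Mcm6 lay within 2-fold and Mcm3 was lower, at 101 against 220.5 FPKM.

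Among the enzymes that supply nucleotides some were higher and others lay within 2-fold. Rrm2, the regulated subunit of ribonucleotide reductase, had 216 FPKM in GRK6-/- CLP, 29.0 in WT CLP, 23.7 in WT HSC and 27.3 in GRK6-/- HSC. Dut, dUTPase, had 305 and 69.8 in GRK6-/- and WT CLP, and Tyms, thymidylate synthase, 41.4 and 12.1. Rrm1, the other subunit of the reductase, was within 2-fold at 48.8 and 34.7. In WT CLP 8 of the 44 replication genes were at least 2-fold below each other library (18.2% against 6.68% of all ranked genes), and in GRK6-/- CLP 5 were at least 2-fold above each other library (11.4% against 10.3%).

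The mitosis genes that differed most were targets of the anaphase promoting complex, kinetochore proteins and mitotic kinesins. Top2a, the topoisomerase that untangles chromosomes, had 478 FPKM in WT CLP, 36.5 in GRK6-/- CLP, 166 in WT HSC and 57.1 in GRK6-/- HSC. Cenpa, the histone of centromeres, had 314 and 25.2 FPKM in WT and GRK6-/- CLP, against 85.8 and 137 in HSC. Ube2c, the ubiquitin-conjugating enzyme of anaphase, had 681 and 110.4. For these 3 genes WT CLP was the highest library and GRK6-/- CLP the lowest. Ccnb1, cyclin B1, had 43.3 FPKM in WT CLP and 3.24 in GRK6-/- CLP, and Ccnb2, cyclin B2, 258 and 49.0. Kif2c, a kinesin that depolymerises microtubules, had 32.5 and 0.128. Mki67, which cycling cells carry in all phases, was alike at 22.3 and 26.2 FPKM, and Incenp and Prc1 were the members that were higher, with log2 ratios of 1.14 and 1.03. In GRK6-/- CLP 9 of the 33 mitosis genes were at least 2-fold below each other library (27.3% against 6.72% of all ranked genes), and in WT CLP 7 were at least 2-fold above each other library (21.2% against 8.74%).

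**Figure D4:**
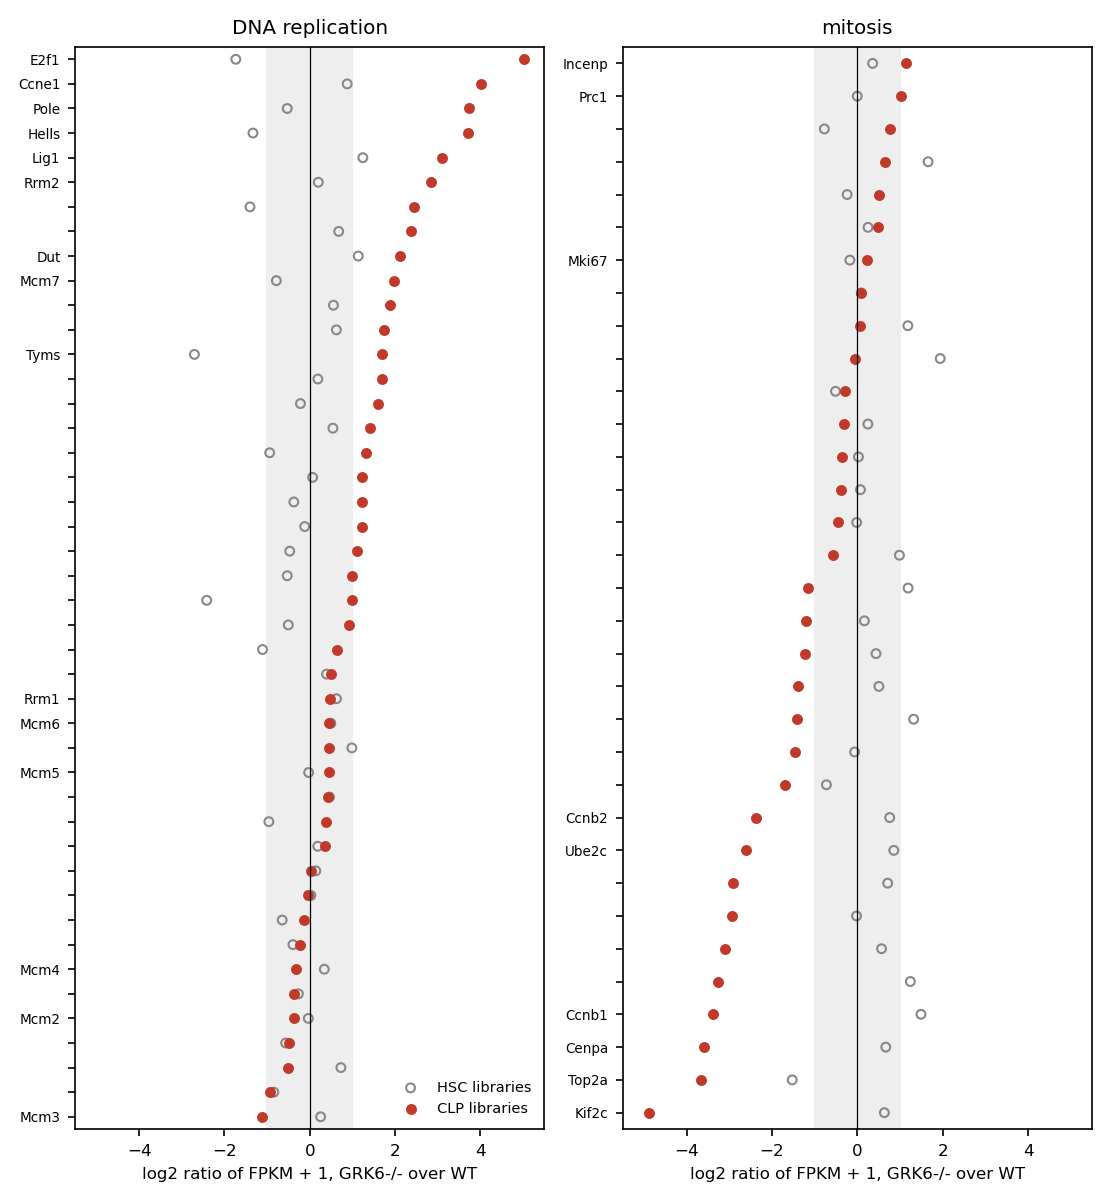
Log2 ratio of FPKM + 1, GRK6-/- over WT, for the 44 ranked replication genes and the 33 ranked mitosis genes; filled points are the CLP libraries, open points the HSC libraries for the same gene, and the grey band is the range within 2-fold. Symbols stand beside the genes that the text names. In CLP 21 replication genes lie to the right of the band and 17 mitosis genes to its left, while most HSC points lie inside it.

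These lists are known to rest on different promoter elements, E2F sites for replication genes and a CHR element with CCAAT boxes for mitosis genes. RefSeq held a window for 37 of 48 replication genes and 37 of 44 mitosis genes. The CHR letters TTNGAA, where N is T or C, on either strand, were in 30 of 37 mitosis windows (81.1%), 7 of 37 replication windows (18.9%) and 19.4% of all windows. CCAAT on either strand was in 78.4%, 59.5% and 37.9% of them. The E2F letters TTNNCGC, where each N is C or G, on either strand, were in 56.8% of replication windows, 16.2% of mitosis windows and 9.69% of all windows. In the windows of the ranked genes the shares were 14.3% for CHR, 39.7% for CCAAT and 18.9% for E2F. The E2F share of mitosis windows was thus not above that of the ranked genes. An E2F match with TTGG, or with CCAA when read from the other strand, can share bases with a CCAAT box, and the CHR letters can share an end base with it. The CHR share did not separate the mitosis genes that were lower in GRK6-/- CLP (13 of 16, 81.3%) from the other ranked ones (9 of 11, 81.8%), and the E2F share was 42.9% in the replication genes that were higher (6 of 14) and 68.4% in the others (13 of 19).

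The windows of 3 mitosis genes that were lower and 2 replication genes that were higher in GRK6-/- CLP are shown because they hold these letters. Not all do, since the windows of E2f1 and Lig1 held no E2F letters and that of Ccnb1 no CHR letters. Capitals mark CHR and CCAAT letters in Top2a, Cenpa and Ccnb2 and E2F letters in Mcm7 and Hells, the latter the gene of a chromatin remodeller of S phase with 46.2 FPKM in GRK6-/- CLP and 2.58 in WT CLP.
Top2a, chr11:99024140-99024439, minus strand: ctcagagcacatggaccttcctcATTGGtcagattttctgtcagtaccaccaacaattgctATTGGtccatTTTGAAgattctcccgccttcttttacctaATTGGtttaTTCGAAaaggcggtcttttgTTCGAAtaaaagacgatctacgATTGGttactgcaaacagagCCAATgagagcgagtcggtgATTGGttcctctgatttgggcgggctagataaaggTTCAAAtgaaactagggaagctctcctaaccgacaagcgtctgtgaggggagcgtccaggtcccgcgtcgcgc
Cenpa, chr5:30666636-30666935, plus strand: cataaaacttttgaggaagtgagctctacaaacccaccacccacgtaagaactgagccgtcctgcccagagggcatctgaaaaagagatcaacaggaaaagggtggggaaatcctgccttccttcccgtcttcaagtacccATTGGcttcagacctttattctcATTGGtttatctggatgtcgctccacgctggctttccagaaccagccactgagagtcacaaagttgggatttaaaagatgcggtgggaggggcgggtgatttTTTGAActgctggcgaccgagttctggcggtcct
Ccnb2, chr9:70421505-70421804, minus strand: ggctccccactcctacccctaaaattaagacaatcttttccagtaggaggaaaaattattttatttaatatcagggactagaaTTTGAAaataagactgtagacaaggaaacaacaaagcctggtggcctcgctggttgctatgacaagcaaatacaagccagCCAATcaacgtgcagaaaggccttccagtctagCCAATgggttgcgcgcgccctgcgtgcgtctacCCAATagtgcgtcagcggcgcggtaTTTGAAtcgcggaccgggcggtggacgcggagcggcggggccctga
Mcm7, chr5:138171834-138172133, minus strand: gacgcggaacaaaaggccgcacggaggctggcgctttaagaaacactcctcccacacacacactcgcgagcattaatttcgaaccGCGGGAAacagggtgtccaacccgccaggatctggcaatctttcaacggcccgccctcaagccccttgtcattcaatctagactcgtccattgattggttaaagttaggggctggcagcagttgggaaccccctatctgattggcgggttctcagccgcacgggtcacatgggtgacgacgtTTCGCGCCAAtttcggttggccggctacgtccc
Hells, chr19:38930740-38931039, plus strand: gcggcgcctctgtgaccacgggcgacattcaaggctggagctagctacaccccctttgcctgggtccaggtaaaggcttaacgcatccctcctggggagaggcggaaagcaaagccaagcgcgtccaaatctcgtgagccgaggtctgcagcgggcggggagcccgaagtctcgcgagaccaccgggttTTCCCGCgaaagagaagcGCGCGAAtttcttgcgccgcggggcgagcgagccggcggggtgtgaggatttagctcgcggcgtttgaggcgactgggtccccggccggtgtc
All coordinates of windows are of GRCm38.p6, while loci taken from the expression files are of mm9.

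The regulators of the cycle gave single genes rather than a shift. Cdkn1a, the p21 inhibitor and a target of p53, had 93.8 FPKM in GRK6-/- CLP, 22.9 in WT CLP and 8.57 and 17.7 in GRK6-/- and WT HSC. It was the only one of 7 ranked p53 targets past 2-fold. Ccnd3, the D-type cyclin of lymphoid progenitors, had 723 and 276 in GRK6-/- and WT CLP, and Ccnd2 17.8 and 39.6. One D-type cyclin was thus higher and another lower. Of 21 ranked DNA damage checkpoint genes 6 were higher and 2 lower, and of the 18 with at least 10 FPKM in both CLP libraries 4 and 1. Atm, the kinase called by double strand breaks, had 44.3 FPKM in GRK6-/- CLP and 3.59 in WT CLP, Clspn, a mediator at stalled forks, 28.4 and 0.18, and H2afx, the histone marked at breaks, 96.5 and 242. Trp53, which encodes p53, was within 2-fold at 134 and 78.4.

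Of the 5 ranked members of the MYC and MAX network 4 were lower, among them the 2 with at least 10 FPKM in both CLP libraries. Max, the partner of all its members, had 53.9 FPKM in WT CLP and 18.9 in GRK6-/- CLP, against 24.7 in WT HSC and 37.4 in GRK6-/- HSC. Mxd4, a repressor of the network, had 72.1 FPKM in WT CLP, no row in GRK6-/- CLP and under 1 FPKM in HSC. Myc and Mxd3 were the other lower members, and Mxd3 had no row in GRK6-/- CLP, where a row of another symbol overlaps its locus. Mga was higher at 28.0 against 4.25 FPKM. MYC targets were spread to both sides. Of 40 ranked targets 9 were lower and 4 higher, and 27 lay within 2-fold. Ncl, which encodes nucleolin, was the target furthest apart, at 2704 FPKM in WT CLP, 34.0 in GRK6-/- CLP, 39.3 in WT HSC and 46.0 in GRK6-/- HSC. WT CLP alone was high for this locus. It runs from 88228020 to 88427289 on mm9 chromosome 1 and may take in other genes.

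Redox genes moved singly. Of 35 ranked antioxidant genes 8 were higher and 5 lower in GRK6-/- CLP, shares of 22.9% and 14.3%. The 5 include Gstm1, a locus that GRK6-/- CLP carried under the symbol Gstm4. Its signal was 62.4 FPKM as Gstm1 in WT CLP and 105 FPKM as Gstm4 in GRK6-/- CLP, so this exchange of names shows no lower level. Among the 30 genes of the list with at least 10 FPKM in both CLP libraries, 6 were higher and 2 lower. Prdx3, the mitochondrial peroxiredoxin, had 160.0 FPKM in GRK6-/- CLP and 15.4 in WT CLP, against 91.1 and 109 in WT and GRK6-/- HSC. Prdx2, the peroxiredoxin abundant in red cells, had 817 and 327 in GRK6-/- and WT CLP. Gss, glutathione synthetase, had 22.1 FPKM in WT CLP and no row in GRK6-/- CLP, while Gclm, of the enzyme one step before it, had 23.99 in GRK6-/- CLP and 8.54 in WT CLP. Sod1, Cat and Gpx1 lay within 2-fold. Sod2, the mitochondrial superoxide dismutase, missed the ranking at 19.6 FPKM in WT CLP and 5.04 in GRK6-/- CLP, as did Nfe2l2, which encodes NRF2, at 8.84 and 14.4. Sod3 was under 1 FPKM in all 4 libraries.

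The subunits of the phagocyte NADPH oxidase came apart. Its membrane subunits were higher in GRK6-/- CLP, with Cybb at 42.9 against 0.802 FPKM and Cyba at 277 against 63.6. In WT and GRK6-/- HSC Cybb had 7.05 and 4.32 FPKM and Cyba 318 and 187, so for Cyba WT CLP was the library that stood apart. Ncf1, a cytosolic subunit, was lower, at 11.7 against 57.0 FPKM. Ncf4, Rac1 and Rac2 lay within 2-fold.

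Immediate early genes, which cells switch on within minutes of a stimulus, were more often lower than higher, by a few genes. Of 17 ranked genes 6 were lower (35.3% against 21.2% of all ranked genes) and 2 higher (11.8% against 22.9%). Of the 14 with at least 10 FPKM in both CLP libraries 4 were lower and 1 higher, where 13.8% and 14.4% of all such genes were. Klf6 had 67.7 FPKM in WT CLP and 8.60 in GRK6-/- CLP, Nr4a1 71.6 and 18.7, and Junb 141 and 55.9. Klf2, which lymphocytes use to hold quiescence, had 87.1 and 36.6 FPKM and was near 0 in HSC. Jun went the other way, at 22.9 FPKM in GRK6-/- CLP and 2.65 in WT CLP, and Fos and Egr1 lay within 2-fold. The list summed to 1473 FPKM in WT CLP, 1020 in GRK6-/- CLP, 526 in WT HSC and 556 in GRK6-/- HSC, so both CLP libraries lay above HSC.

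Survival and interferon genes were few. Of the 5 ranked BCL2 family genes 3 were lower, among them Bcl2 at 17.5 against 37.8 FPKM and Bad, which opposes it, at 21.4 against 93.1. Mcl1, the survival factor of early lymphoid cells, was within 2-fold at 61.8 and 53.2. Of 14 ranked interferon response genes 5 were higher and 1 lower, but of the 10 with at least 10 FPKM in both CLP libraries 1 was higher and 1 lower, with a median log2 ratio of -0.43. Stat2, which carries the type I signal, had 30.3 and 2.56 FPKM in GRK6-/- and WT CLP, Isg20, an antiviral exonuclease, 48.2 and 3.35, and Rtp4, the lower gene, 10.3 and 65.6. Of 7 ranked homing receptors of the G protein-coupled kind 2 were higher, Ccr9 and P2ry14, the latter at 25.3 against 0.145 FPKM, and none of the 5 with at least 10 FPKM in both CLP libraries lay past 2-fold.

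Genes of the large constitutive complexes show how far single genes of their level differ between these libraries where no cell type is in question. Most had at least 10 FPKM in both CLP libraries, as did 64 of 69 mitochondrial ribosomal proteins and 74 of 75 subunits of oxidative phosphorylation. They therefore give no measure for genes that were low or without a row in 1 CLP library. Of 69 ranked mitochondrial ribosomal proteins 13 were higher and 12 lower, and of 75 subunits of oxidative phosphorylation 6 were higher and 7 lower. Splicing factors gave 5 and 4 of 45, and translation factors 6 and 6 of 54. The members of 1 complex thus lay on both sides in similar numbers. Cytosolic ribosomal proteins were tighter, with 4 higher and 5 lower of 74. The higher ones include Rpl30, whose locus was listed under another symbol in WT CLP, so no difference can be read from it. Of the 73 with at least 10 FPKM in both CLP libraries 3 were higher and 5 lower. Among the lower ones was Rps15 at 39216 FPKM in WT CLP and 1611 in GRK6-/- CLP, against 1996 and 1952 in WT and GRK6-/- HSC. Proteasome genes were less even, with 2 higher and 9 lower of 36. Of 14 ranked reference genes 9 lay within 2-fold, among them Gapdh at 144 and 143 FPKM, while Actb had 1076 and 505 and Polr2a, the large subunit of RNA polymerase II, 36.9 and 5.94.

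**Figure D5:**
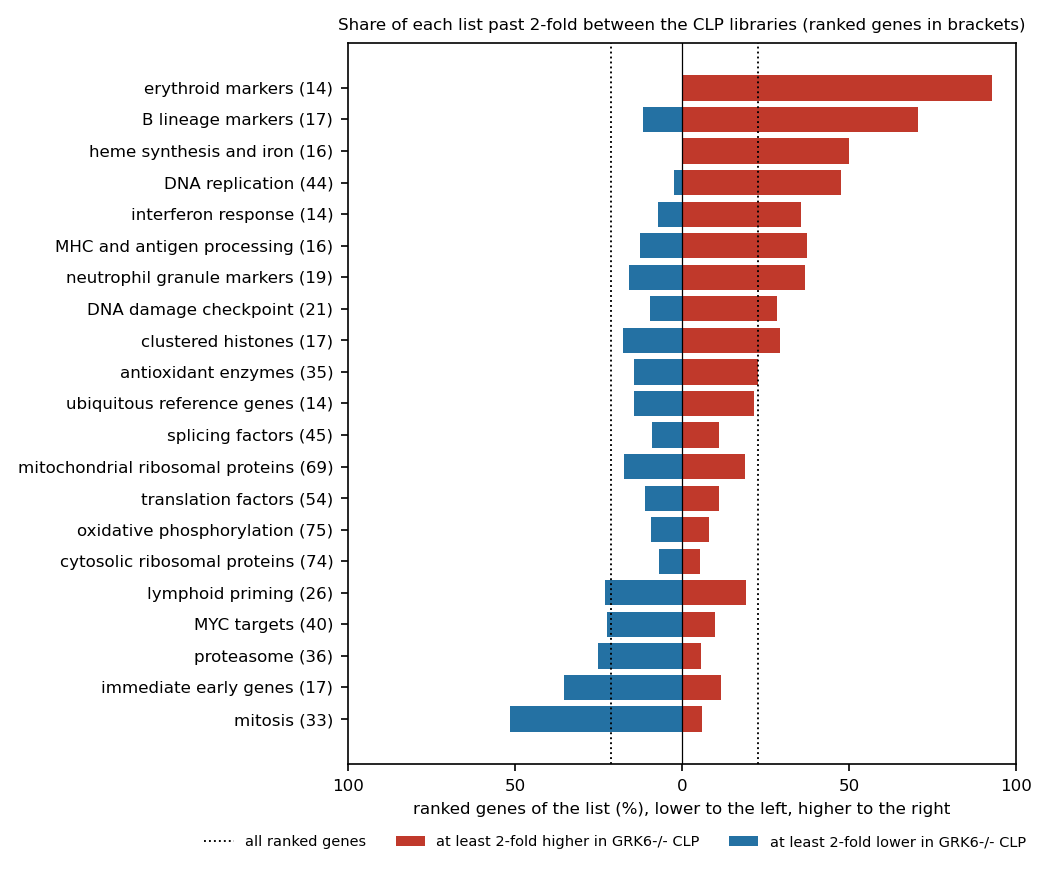
Bars give the share of the ranked genes of each list that were at least 2-fold higher (to the right) or lower (to the left) in GRK6-/- CLP, for lists with at least 14 ranked genes; dotted lines are the shares over all 5238 ranked genes, 22.9% and 21.2%. Erythroid, B lineage, heme and replication lists lie far to the right, mitosis and immediate early genes to the left, and most constitutive complexes are short on both sides, while the proteasome reaches 25.0% on the lower side.

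Many of the extremes of the ranking were set by how rows were named. Of the 20 highest genes 8, and of the 20 lowest 11, were listed at the same locus under different symbols in different libraries, had no row where a row of another symbol overlaps their locus, or were short RNA genes. Rpl30 had no row in WT CLP, where its locus was listed as Gm12191 at 1045 FPKM, and had 707 FPKM in GRK6-/- CLP. Pnp and Pnp2 were exchanged in the same way, with 155 FPKM for Pnp2 in WT CLP and 109 for Pnp in GRK6-/- CLP. These pairs are 1 signal under different names and no difference in expression can be read from them. In all, 138 ranked genes (2.63%) had no row in WT CLP and 111 (2.12%) none in GRK6-/- CLP, and 81 of these 249 were overlapped by a row of another symbol.

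Without such genes, the 20 highest held globin, heme, MHC class II and surrogate light chain genes named above, with several unrelated ones. Klk1 was listed at 173 FPKM in GRK6-/- CLP only, but its row spans the kallikrein gene cluster. Ccr6, a chemokine receptor of B cells and dendritic cells, was listed at 101 FPKM in GRK6-/- CLP, with no row in WT CLP and 2.31 in GRK6-/- HSC. Pot1b, a telomere protein, had 91.0 FPKM in GRK6-/- CLP, 0.065 in WT CLP, 0.792 in WT HSC and 26.7 in GRK6-/- HSC. Some of these genes were missing from WT CLP alone. Hspb11, a protein of cilia, had 104 FPKM in GRK6-/- CLP against 35.0 and 92.4 in GRK6-/- and WT HSC, and Exosc8, of the RNA exosome, 87.2 against 132 and 94.2.

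The 20 lowest were more mixed. Tbc1d10c, a lymphocyte GTPase-activating protein, had no row in GRK6-/- CLP and 237 FPKM in WT CLP, against 85.5 and 247 in GRK6-/- and WT HSC. Rab7, a GTPase of late endosomes that every cell uses, had 0.764 FPKM in GRK6-/- CLP against 105 in WT CLP, 101 in WT HSC and 87.3 in GRK6-/- HSC. In these genes GRK6-/- CLP alone was low. Tcf15, a basic helix-loop-helix factor, was listed at 75.3 FPKM in WT CLP only, and Egf at 87.2 FPKM in WT CLP with 0.0539 in GRK6-/- HSC. Casp4, an inflammatory caspase, had 92.9 and 0.272 FPKM in WT and GRK6-/- CLP, and Ccl3, a chemokine of myeloid cells, 51.9 FPKM in WT CLP and no row in GRK6-/- CLP.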

How the data were processed

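The libraries came from sorted bone marrow cells, 1 library for each genotype in CLP and in HSC. Per the labels, reads were aligned to mm9 with TopHat 1.4.0. The authors deposited FPKM values for each library, with symbols and loci and without counts, so no count test was run. FPKM were summed by symbol, and the 325 genes named in rows with several symbols were left out. Ratios used a pseudocount of 1 FPKM, and 2-fold was the only threshold. Depth was estimated from steps in low FPKM of genes with 1 annotated transcript (GENCODE vM1). Promoter windows came from RefSeq (GRCm38.p6). Named genes were the 20 highest and 20 lowest, the 10 highest without a row in either direction, Grk6 and related kinases, sorting and stress genes, and the members of 41 written lists that lie furthest apart or are most abundant. A few genes that these rules name are not reported here. Members, lists and rules were chosen with earlier results of these data known. The alternatives tried were pseudocounts, filters, scalings and the handling of rows. Python 3.11.15, numpy 2.4.6, pandas 2.3.3 and matplotlib 3.10.9 were used, and the computations were tested on simulated data.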

Additional observations from a re-analysis of the deposited data

Results flagged for a closer look

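In 13 of the genes named here that were ranked in both populations the difference between GRK6-/- and WT was at least 2-fold in both populations and ran in opposite directions in HSC and CLP. With 1 library per group this difference between the populations was not tested. The genes named here were chosen in part for large differences in CLP. The share over all 4084 genes ranked in both populations was not counted, so the number 13 is no result in itself. Of these, 5 were higher in GRK6-/- CLP and lower in GRK6-/- HSC. E2f1 had log2 ratios of 5.02 in CLP and -1.73 in HSC, and Tyms 1.69 and -2.70. Itga2b had 3.74 in CLP and -3.21 in HSC, H2-Ab1 2.94 and -2.003, and Hspb11, which had no row in WT CLP, 6.72 and -1.38. The other 8 were lower in GRK6-/- CLP and higher in GRK6-/- HSC. Myc had -1.89 in CLP and 1.63 in HSC, Ccnb1 -3.39 and 1.49, Bcl2 -1.07 and 1.79, and Stat5a -3.05 and 1.31. F13a1 had -5.58 in CLP and 2.10 in HSC, Rtp4 -2.57 and 1.39, Eif2b1 -1.13 and 1.41, and Mcpt8, which had no row in GRK6-/- CLP, -4.55 and 1.92.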

How the results depend on the processing

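The counts of 1197 higher and 1112 lower genes rose to 2973 and 2620 without a filter on low values, and came to 589 and 562 among genes with at least 10 FPKM in both CLP libraries and to 615 and 521 at a 4-fold threshold. The other alternatives, 2 pseudocounts, 2 scalings, the handling of rows and leaving out renamed, overlapped or short RNA genes, gave counts within 1.5 times. Scaling each library to the same sum, which gives TPM, raised the median log2 ratio by 0.11. Of 1098 log2 ratios of named genes under alternatives none reversed, 1 came to pass 2-fold and 9 fell under it, among them Grk6 (0.97 with a pseudocount of 5) and Blk (-0.997 as TPM). The erythroid median log2 ratio was 5.24, and 7.98 with a pseudocount of 0.1, 3.84 over all members with a value and 5.92 as TPM. Over all members with a value, other medians were 0.41 for heme synthesis and iron, 4.16 for dendritic, 0.74 for natural killer, -1.17 for monocyte, -1.93 for mast cell and basophil, -0.021 for V(D)J, -0.95 for MYC and MAX, -0.23 for BCL2 family and 0.26 for homing receptor genes, which were 1.09, 4.66, 2.98, -0.58, -4.55, -0.73, -1.89, -1.07 and 0.76 over ranked members. The natural killer median was also 0.74 over genes with a row in both CLP libraries and 4.63 with a pseudocount of 0.1, and the mast cell and basophil median -7.81 with that pseudocount and -5.15 as TPM. The cause of these shifts was not tested. No replicate could be left out. No paired analysis was possible because each group has 1 library and the labels give no replicate numbers. Values under about 0.2 FPKM rest on about 1 fragment.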

Other observations

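The genes beside Grk6 on chromosome 13 differed between the CLP libraries to both sides. Of the 5 genes listed on each side, Ddx41, a helicase, had 206 FPKM in WT CLP and 19.2 in GRK6-/- CLP, against 25.2 in WT HSC and 37.6 in GRK6-/- HSC. Rgs14, a regulator of G protein signalling and the listed gene next to Grk6 at lower coordinates, had 8.23 and 0.469 FPKM in WT and GRK6-/- CLP and 6.49 and 1.70 in WT and GRK6-/- HSC. It was the neighbour that was lower past 2-fold in both populations, below the levels used for the ranking. Rab24, a small GTPase, had 23.8 and 65.3 FPKM in WT and GRK6-/- CLP, while Prelid1, Lman2 and Dok3 lay within 2-fold.

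Subunits of the translation factors that respond to stress through eIF2 were apart within the otherwise even translation list. Eif2b1, Eif2b2 and Eif2b4, subunits of the exchange factor eIF2B, had 21.99, 22.3 and 107 FPKM in WT CLP and 9.48, 2.69 and 11.4 in GRK6-/- CLP. Eif2ak4, the kinase GCN2 that senses amino acids, had 65.0 FPKM in WT CLP and no row in GRK6-/- CLP. Eif2ak3, the kinase PERK of the endoplasmic reticulum, was higher, at 46.8 FPKM in GRK6-/- CLP against 1.50 in WT CLP. These genes were picked from the list after their values were seen.

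Among other genes far apart, Icam2, an adhesion molecule, had 5.65 FPKM in GRK6-/- CLP against 122 in WT CLP, and 88.1 in WT HSC and 70.8 in GRK6-/- HSC. Nlrc5, the activator of MHC class I genes, had 77.3 and 10.4 FPKM in WT and GRK6-/- CLP. Rpl22, a ribosomal protein, had 2655 FPKM in GRK6-/- CLP and 384 in WT CLP, 518 in WT HSC and 648 in GRK6-/- HSC.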
